A study of Mus musculus with 9 samples.

Results

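*Cxcl9*, *Cxcl10*, *Cxcl11* and *Cxcr3*, the 3 interferon-inducible chemokines that bind the receptor CXCR3 and the receptor itself, were followed in mouse lung grafts. They were chosen by gene. Every probe that was not a control and whose accession the RefSeq annotation used here pairs with 1 of these 4 genes was taken. This gave 3 probes, 1 each for *Cxcl9*, *Cxcl10* and *Cxcr3*, of the 56601 probes tested and the 22909 genes named on the array. No probe carried the accession that RefSeq gives for *Cxcl11*, which is annotated there as a transcribed pseudogene in the reference strain, and that is the only accession the table used here pairs with the gene. Probes designed to another record of the gene are not recognised through this table, and any on the array were not read. *Cxcl11* is therefore given no value here, which does not mean that the array lacks a probe for it.

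Left lungs of male C57BL/10 mice were transplanted in place of the left lung of male C57BL/6 mice, a pair of inbred adult strains that differ in minor histocompatibility antigens. The grafts were taken at day 21. Those in which histology showed obliterative bronchiolitis, the fibrous closing of small airways seen in chronic rejection of lung transplants, formed the OB group, and those without it the non-OB group. Sham mice had a thoracotomy and no transplant, and their own left lung was taken at the same time. The labels name no drug for any group, while the study's methods state isoflurane anaesthesia and buprenorphine against pain after surgery. Each group had 3 lungs, with 1 array per lung. The labels give the donor and recipient strains of the transplant for all 9 lungs, whereas the study's methods say that both strains served as sham. The study's clustering of the samples names sham 1 as a C57BL/10 lung and the other sham lungs as C57BL/6. Lung tissue was measured without separating its cells, so that a graft sample holds cells of donor and recipient. More cells of a type cannot be told apart from more RNA per cell. By the study's methods, different parts of each lung went to histology and to gene profiling.

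CXCR3 is a G protein-coupled receptor carried mainly by activated T cells of the type 1 programme and by natural killer cells. Its ligands are made by macrophages, dendritic cells, endothelium and epithelium after interferon gamma. They are known for drawing T cells into rejecting transplants, and *Cxcl9*, *Cxcl10* and *Cxcl11* lie side by side in the genome.

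The bases before the start of the members are shown because the interferon regulatory factors and nuclear factor kappa B, which carry signals that switch the ligands on, read short motifs there. Each line gives the 250 bases before the RefSeq start on build GRCm38.p6, all 3 on the minus strand, at chr5:92328080-92328329 for *Cxcl9*, chr5:92348890-92349139 for *Cxcl10* and chrX:101734148-101734397 for *Cxcr3*. Capitals mark the motif matches.
Cxcl9: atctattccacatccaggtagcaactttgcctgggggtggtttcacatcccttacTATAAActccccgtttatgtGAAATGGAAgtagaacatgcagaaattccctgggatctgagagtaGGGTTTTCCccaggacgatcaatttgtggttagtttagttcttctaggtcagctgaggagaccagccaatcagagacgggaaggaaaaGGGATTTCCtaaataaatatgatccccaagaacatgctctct
Cxcl10: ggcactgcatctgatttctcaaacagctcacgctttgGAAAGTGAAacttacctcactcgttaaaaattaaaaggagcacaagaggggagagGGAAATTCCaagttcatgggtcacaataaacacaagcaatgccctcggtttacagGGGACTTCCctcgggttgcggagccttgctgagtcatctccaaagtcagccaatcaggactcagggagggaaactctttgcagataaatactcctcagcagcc
Cxcr3: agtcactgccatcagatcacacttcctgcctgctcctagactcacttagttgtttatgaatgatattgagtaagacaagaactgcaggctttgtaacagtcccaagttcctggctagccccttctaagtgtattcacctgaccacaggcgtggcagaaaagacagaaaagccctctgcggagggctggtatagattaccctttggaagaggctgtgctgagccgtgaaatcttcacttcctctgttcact
The motifs were searched on both strands. They were the core of the interferon-stimulated response element (TTCNNTTTC), the gamma-activated site (TTCNNNGAA), a pair of kappa B patterns that overlap each other (GGNNTTTCC and GGGNNTTCC), a T-box (TCACACCT) and the TATA box (TATAAA). The *Cxcl9* window held 1 response element core, 175 to 167 bases before the start, and 2 kappa B matches, 130 to 122 and 42 to 34 bases before it, each of which met both patterns. It also held a TATAAA 195 to 190 bases before the start. The *Cxcl10* window held 1 response element core, 213 to 205 bases before the start, and 1 match to each kappa B pattern, 158 to 150 and 103 to 95 bases before it. The *Cxcr3* window held no match to any of the 6 motifs. Of the 32851 promoters in the table, 7.13% held the response element core, 7.02% the gamma-activated site, 4.93% and 4.98% the kappa B patterns, 1.12% the T-box and 12.4% TATAAA within the same length. A match is a description of the letters and not of a bound site.

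Signals were scaled so that each array had the same trimmed mean and are given on the log2 scale. Between 58.6% and 69.6% of the spots on an array were well above background, and no spot was saturated. All 3 members were well above background on all 9 arrays. Alveolar type 2 markers were well above background in every group, and 0 of 8 were called by limma in OB against sham or non-OB against sham, also 0 of 8 at an unadjusted p under 0.05. Cardiac muscle markers stood apart in the sham lungs, where the summed scaled signal of the 8 genes was 60854 to 174822, against 3780 to 10444 in OB and 4484 to 9001 in non-OB. Skeletal muscle markers ranged from 2824 to 31521 in OB and from 1716 to 2791 over the other groups. The part of these muscle markers in the results below was not tested. OB 1, non-OB 1 and the first 2 sham lungs shared slide 1. OB 2 shared slide 2 with non-OB 3, OB 3 shared slide 3 with non-OB 2, and sham 3 was alone on slide 4.

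In OB against sham, all 3 measured members rose. *Cxcl9* rose 511-fold, *Cxcl10* 51.3-fold and *Cxcr3* 10.0-fold. Over the whole array, 2.72% of probes were called higher in OB than in sham and 2.43% lower, where called means an adjusted p under 0.05 in limma and a change of at least 2-fold. For each of the 3 members the lowest OB array was above the highest sham array, as it was for 20.0% of probes.

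*Cxcl9* (NM_008599), the ligand most tied to interferon gamma, read 14.01, 14.04 and 13.52 in OB 1, 2 and 3, and 4.96, 4.74 and 4.88 in sham 1, 2 and 3. As scaled signals these were 16502, 16861 and 11725 in OB and 31.0, 26.8 and 29.5 in sham. The OB arrays were high together and the sham arrays sat close to the dim end of the array, with spots only 1.72 to 2.35 times their local background. The log2 fold change was 9.0 ± 0.36 (SE, n = 3 against 3), with a 95% confidence interval of 8.16 to 9.83 and an adjusted p of 0.00012 in limma. Its size depended on the background correction. Normexp with quantile normalization gave 6.95 in place of 9.0, with the call kept.

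*Cxcl10* (NM_021274), the ligand that type I interferon and nuclear factor kappa B also switch on, read 13.40, 13.69 and 13.52 in OB 1, 2 and 3, and 7.67, 7.84 and 8.06 in sham 1, 2 and 3. The OB arrays had an SD of 0.15 (n = 3), and the groups did not overlap. The log2 fold change was 5.68 ± 0.27 (SE, n = 3 against 3), with a 95% confidence interval of 5.05 to 6.31 and an adjusted p of 0.000237 in limma.

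*Cxcr3* (NM_009910), the receptor, read 11.49, 12.05 and 12.17 in OB 1, 2 and 3, and 8.24, 8.53 and 8.98 in sham 1, 2 and 3. OB 1 was the lowest of its group and sham 3 the highest of the controls, with a wide gap between them. The log2 fold change was 3.32 ± 0.27 (SE, n = 3 against 3), with a 95% confidence interval of 2.70 to 3.94 and an adjusted p of 0.00141 in limma.

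**Figure D1:**
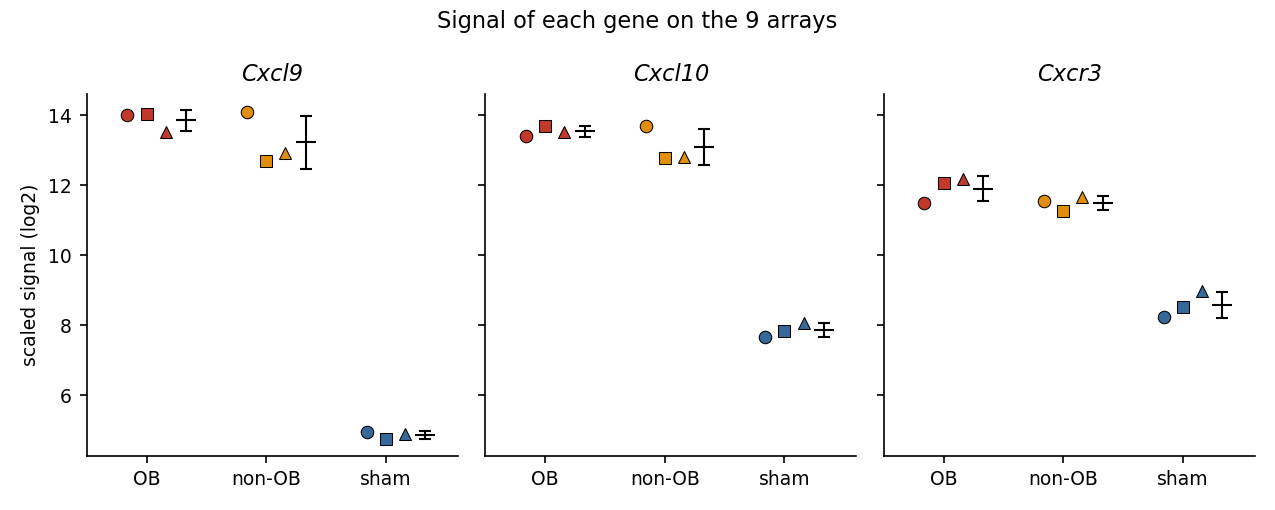
Log2 scaled signal (vertical axis) of *Cxcl9*, *Cxcl10* and *Cxcr3* on each array, by group. Circles, squares and triangles are replicates 1, 2 and 3, and the black bar is the mean with its SD (n = 3). The graft arrays lie above all sham arrays in each panel, and OB and non-OB arrays overlap.

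In non-OB against sham, the same 3 genes rose, in lungs whose histology did not show the airway lesion. The background of probes called higher was 1.81% and of probes called lower 0.710%. The lowest non-OB array was above the highest sham array for 16.3% of probes and for all 3 members. This comparison uses the same sham arrays as the one before it. *Cxcl9* read 14.10, 12.68 and 12.91 in non-OB 1, 2 and 3. Its log2 fold change was 8.37 ± 0.36 (SE, n = 3 against 3), or 331-fold, with an adjusted p of 0.000214 in limma. Under normexp with quantile normalization it was 6.29. *Cxcl10* read 13.70, 12.79 and 12.82, and changed by 5.24 ± 0.27 (SE, n = 3 against 3), or 37.9-fold, with an adjusted p of 0.000392 in limma. For both ligands non-OB 1 was the highest array of its group and of all 9, for *Cxcl10* just above OB 2 (13.70 against 13.69). *Cxcr3* read 11.54, 11.26 and 11.66, and changed by 2.90 ± 0.27 (SE, n = 3 against 3), or 7.49-fold, with an adjusted p of 0.00347 in limma. Non-OB 1 lay between the other arrays of its group for the receptor.

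Slide 1 is the only slide with grafts and sham lungs together. On it, OB 1 exceeded the mean of sham 1 and sham 2 572-fold for *Cxcl9*, 49.9-fold for *Cxcl10* and 8.59-fold for *Cxcr3*, and non-OB 1 exceeded it 608-fold, 61.4-fold and 8.89-fold. For OB 1 these ratios were close to the fold changes over all slides, and for non-OB 1 the ligands stood higher than over all slides. With slide as a fixed block the fit takes its sham lungs from slide 1 alone, and the adjusted p in limma was 0.0433 for *Cxcl9*, 0.0541 for *Cxcl10* and 0.0604 for *Cxcr3* in OB against sham, and 0.0776, 0.0776 and 0.0974 in non-OB against sham. The C57BL/10 sham lung differed from the mean of the C57BL/6 sham lungs by 0.14 for *Cxcl9*, -0.28 for *Cxcl10* and -0.52 for *Cxcr3*, differences that 1 lung against 2 cannot test. With the C57BL/10 lung as the only control, *Cxcl9*, *Cxcl10* and *Cxcr3* changed by 8.90, 5.87 and 3.67 in OB. In non-OB they changed by 8.27, 5.43 and 3.25. That fit takes the spread from the graft arrays and the C57BL/6 sham arrays, and assumes the same spread for the lone C57BL/10 lung.

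In OB against non-OB, 0 of 3 members were called, and neither was any probe of the array (0%). The smallest adjusted p of all probes was 0.893 in limma, and 1102 probes but no member had an unadjusted p under 0.05. *Cxcl9* was 0.63 ± 0.36 (SE, n = 3 against 3) higher in OB on the log2 scale, a ratio of 1.54 with a 95% confidence interval of 0.865 to 2.76. *Cxcl10* was 0.44 ± 0.27 higher, a ratio of 1.35 with an interval of 0.877 to 2.09. *Cxcr3* was 0.42 ± 0.27 higher, a ratio of 1.33 with an interval of 0.869 to 2.05. The intervals reach from below 1 to above 2, so these arrays set a bound and do not show that the groups are alike. All OB arrays lay above all non-OB arrays for none of the 3 members, and for 1.09% of probes. For *Cxcr3*, OB 2 and OB 3 lay above every non-OB array and OB 1 did not.

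The order within a slide was not the same on every slide. On slide 1, OB 1 lay below non-OB 1 by 0.09 for *Cxcl9*, 0.30 for *Cxcl10* and 0.05 for *Cxcr3*. On slide 2, OB 2 lay above non-OB 3 by 1.13, 0.87 and 0.39 for the same genes. On slide 3, OB 3 lay above non-OB 2 by 0.84, 0.74 and 0.91. The pair on slide 1 thus went one way and the pairs on slides 2 and 3 the other, for each member. The size of each difference moved with single arrays. *Cxcl9* (0.63) was 1.06 without non-OB 1 and 0.35 without non-OB 2, *Cxcl10* (0.44) was 0.74 without non-OB 1, 0.28 without non-OB 2 and 0.30 without non-OB 3, and *Cxcr3* (0.42) was 0.63 without OB 1 and 0.28 without OB 3. All stayed above 0, and no member was called in any of these fits.

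**Figure D2:**
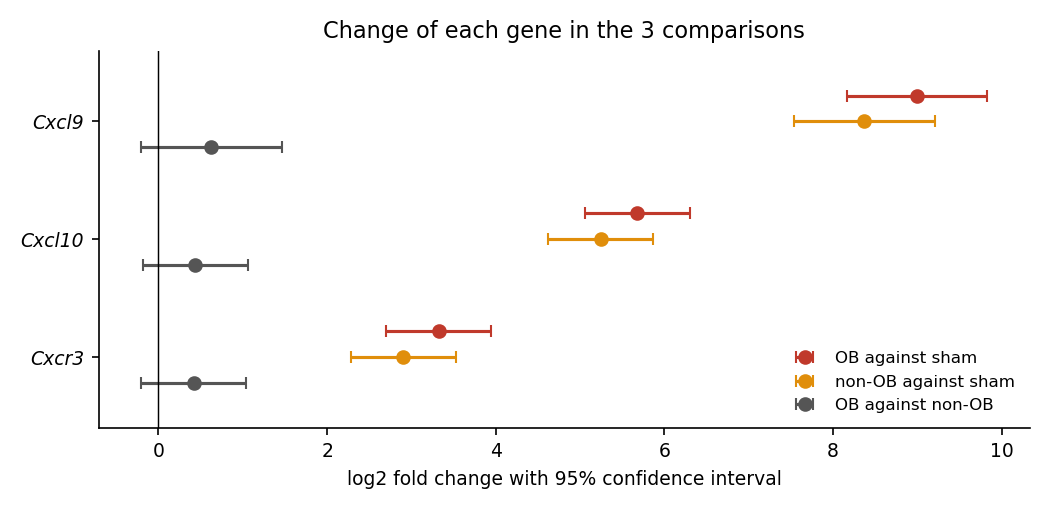
Log2 fold change (horizontal axis) of *Cxcl9*, *Cxcl10* and *Cxcr3* in the 3 comparisons, with the 95% confidence interval from limma (n = 3 against 3). The intervals against sham lie far from 0, and those of OB against non-OB include 0 for each gene.

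The step from sham to graft was larger for *Cxcl9* than for *Cxcl10* on these arrays. With 3 arrays against 3, the permutation test used for it could not reach a p under 0.05. Since levels of different probes cannot be compared, the difference of *Cxcl9* minus *Cxcl10* on each array was set against the same difference in the other groups. It was 0.61, 0.35 and -0.01 in OB 1, 2 and 3, 0.40, -0.11 and 0.09 in non-OB 1, 2 and 3, and -2.71, -3.10 and -3.18 in sham 1, 2 and 3. All graft arrays lay above all sham arrays. The step of *Cxcl9* was thus 3.32 larger than that of *Cxcl10* on the log2 scale in OB against sham and 3.13 larger in non-OB against sham, with an exact two-sided permutation p of 0.1 in each, the smallest that 3 arrays against 3 can give. It was 1.80 and 1.62 larger under normexp with quantile normalization. In OB against non-OB the value was 0.19 (exact permutation p = 0.5).

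On these arrays the step of *Cxcr3* was larger than the mean step of a list of T cell markers. Here too the permutation test could not reach a p under 0.05. The 11 measured genes of that list of 12 had a mean log2 signal of 12.01 to 12.28 in OB, 11.31 to 11.81 in non-OB and 9.83 to 10.54 in sham, so the list too was higher in the grafts. *Cxcr3* minus that mean was -0.64, 0.05 and -0.11 in OB 1, 2 and 3, -0.27, -0.04 and -0.14 in non-OB 1, 2 and 3, and -1.59, -2.01 and -1.40 in sham 1, 2 and 3. The grafts and the sham lungs did not overlap. The step of the receptor exceeded that of the list by 1.44 in OB against sham and by 1.52 in non-OB against sham on the log2 scale, each with an exact two-sided permutation p of 0.1, the smallest possible. In OB against non-OB the value was -0.08 (exact permutation p = 0.9), and it was 0.12 without OB 1. Single genes of the list ran from *Cd247* (-0.11) to *Cd8a* (3.03 ± 0.40 SE) in OB against sham, so some moved nearly as far as *Cxcr3* (3.32). In non-OB against sham they ran from *Cd247* (-0.22) to *Cd5* (2.27). With the median of the list in place of its mean, the receptor's excess was 1.54 and 1.81.

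**Figure D3:**
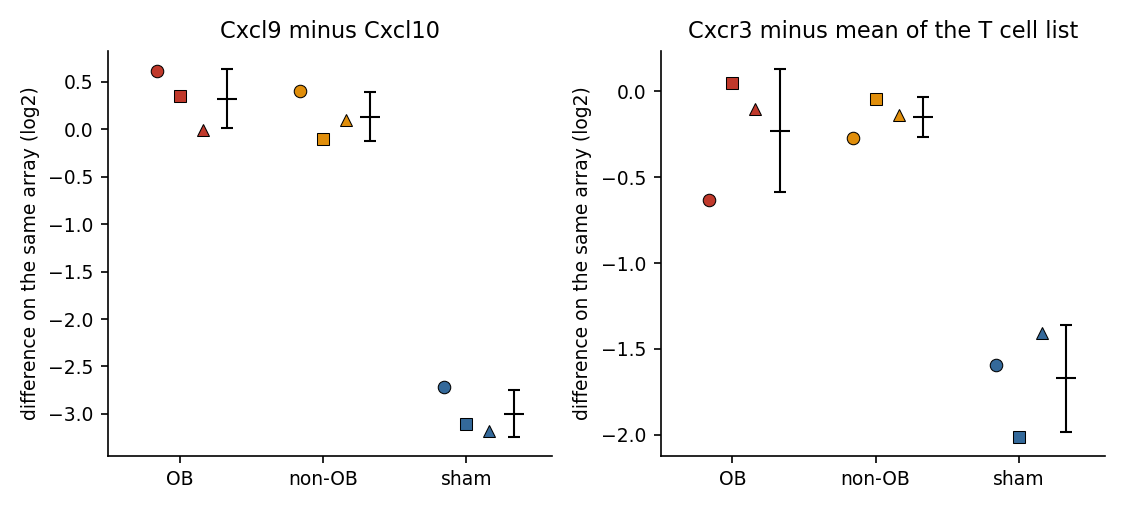
Differences in log2 signal between probes of the same array, by group: *Cxcl9* minus *Cxcl10* on the left and *Cxcr3* minus the mean of 11 T cell markers on the right. Symbols are replicates 1 (circle), 2 (square) and 3 (triangle), and bars give the mean and SD (n = 3). In both panels the 3 sham arrays lie below all 6 graft arrays, and the zero point carries no meaning because probes differ in brightness.

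Of 12 other CXC chemokines, 2 were called higher and 2 lower in OB against sham, where 2.72% of all probes were called higher and 2.43% lower. They had a median log2 change of -0.15 (-0.19 with the 2 genes that were not well above background in either group set to no change) beside 0.08 over all probes. *Cxcl13*, which draws B cells into follicles, rose by 3.18 ± 0.43 (SE) with an adjusted p of 0.0066 in limma, and *Cxcl16*, the ligand of CXCR6, rose by 1.27 ± 0.21. *Ppbp*, a platelet chemokine, fell by 2.89 on the log2 scale and *Cxcl14* fell by 1.25. *Pf4*, the platelet factor reported to bind a human splice form of CXCR3, changed by -0.54 ± 0.25 and was not called (adjusted p = 0.285). *Cxcl1*, *Cxcl5* and *Cxcl12* were not called, and *Cxcl2* and *Cxcl3*, which draw neutrophils, had no array well above background in either group. In non-OB against sham, *Cxcl13* (3.08) and *Cxcl16* (1.13) were called higher and 0 of 12 lower.

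Of 19 CC and other chemokines, 14 in OB against sham were called higher and 1 lower, with a median of 2.31, and in non-OB against sham 12 of 19 higher and 0 lower, with a median of 1.80 (1.79 with genes that were not well above background in a group at their bound). *Ccl8* rose by 5.74 and *Xcl1*, which draws cross-presenting dendritic cells, by 3.98 in OB against sham. *Ccl1* (7.16) and *Ccl20* (7.02) rose too, but were well above background on only 1 and 2 of the 3 sham arrays, so the size of their change is uncertain. *Cx3cl1*, the membrane-bound chemokine of endothelium, fell by 1.08 there.

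Of 21 other chemokine receptors, 8 were called higher and 2 lower in OB against sham, with a median of 1.67. *Cxcr6*, which marks effector T cells as *Cxcr3* does, rose by 3.20 ± 0.31 (SE), beside the 3.32 of *Cxcr3*. *Xcr1*, the receptor of cross-presenting dendritic cells, was not well above background in sham and was at least 7.08-fold higher in OB. *Ackr1*, an atypical receptor of venules that takes up chemokines without signalling, rose by 5.20 ± 0.51 and was well above background on 2 of the 3 sham arrays. *Ackr4* and *Ackr2*, atypical receptors that scavenge CC chemokines, fell by 3.02 and 1.64. *Ackr4* was well above background on 2 of 3 arrays in each of the OB and non-OB groups. *Cxcr4*, the receptor of *Cxcl12*, changed by 0.15 ± 0.26 and was not called. In non-OB against sham 7 of 21 were called higher and 1 lower, among them *Ackr1* at 4.19, *Cxcr6* at 2.32 and *Ackr4* at -2.97.

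**Figure D4:**
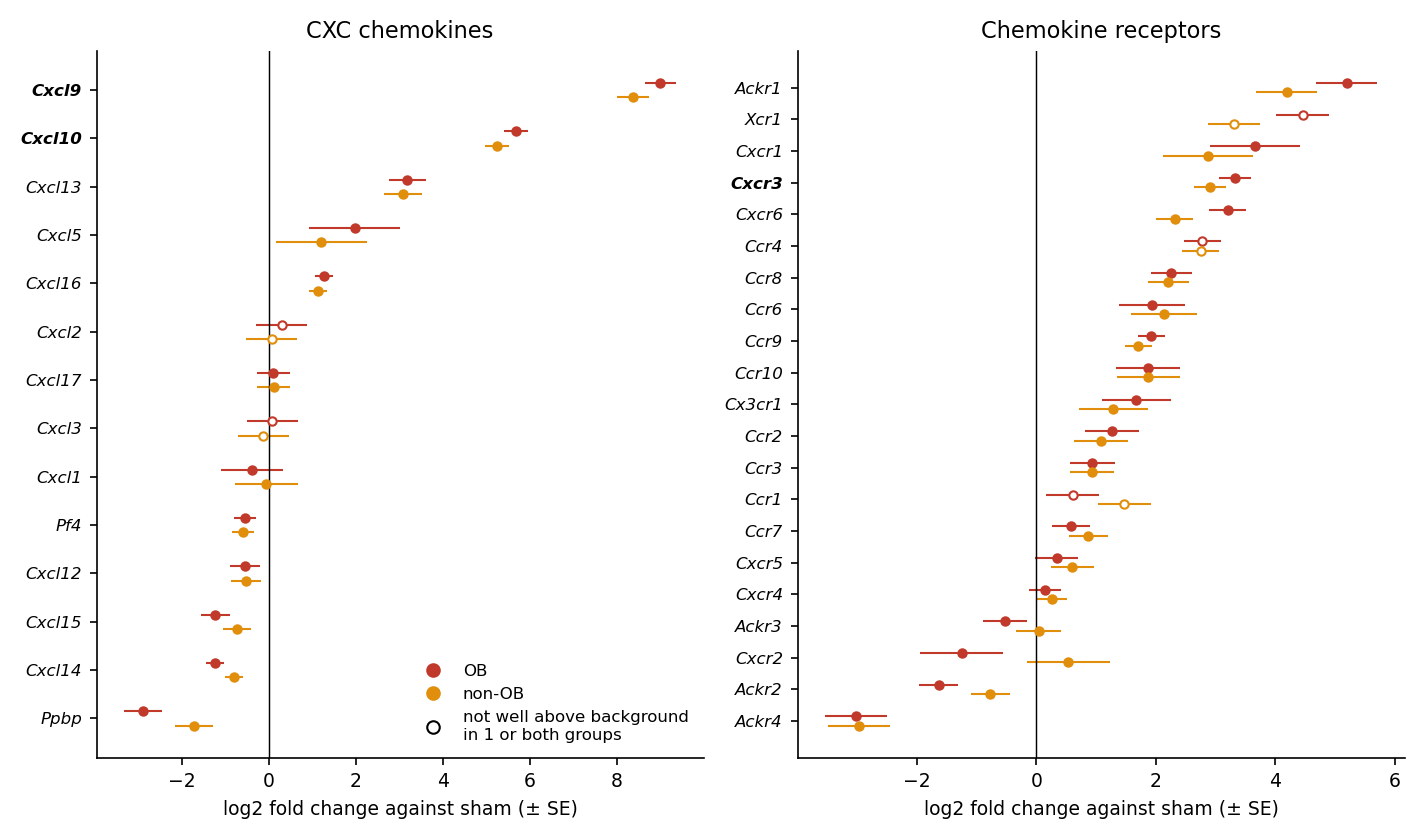
Log2 fold change against sham (horizontal axis, with SE) of the CXC chemokines and of the chemokine receptors reported here in OB (red) and non-OB (orange), ordered by the value in OB. *Cxcl9*, *Cxcl10* and *Cxcr3* are in bold, and open circles are genes not well above background in 1 or both groups, whose plotted value is the fitted one. *Cxcl9* (9.0) and *Cxcl10* (5.68) head their family in OB, while *Cxcr3* (3.32) lies between *Cxcr1* and *Cxcr6*.

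Interferon gamma stands upstream of both ligands. *Ifng* itself rose by 3.34 ± 0.36 (SE) in OB against sham (adjusted p = 0.0031 in limma) and by 2.67 ± 0.36 in non-OB against sham (adjusted p = 0.011). In OB 4 of the 12 genes of the receptor and signalling list were called, all higher, among them *Irf8* (1.41) and *Socs1*, an inhibitor of the pathway (1.85). The receptor chains did not move with them, with *Ifngr1* at -0.03 ± 0.19 and *Ifngr2* at 0.08 ± 0.16, and *Irf1* at 0.64 ± 0.18 was not called (adjusted p = 0.0885). In non-OB 2 of 12 were called, both higher.

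Genes that interferon gamma induces were called higher in OB in 18 of 18 cases, with a median log2 change of 2.02, and in non-OB in 16 of 18, with a median of 1.67. Examples in OB are *Iigp1* (3.23), *Gbp5* (3.02), *Gbp6* (2.92) and *Igtp* (2.83), guanosine triphosphatases of cell-autonomous defence. Genes known for induction by type I interferon were called higher in 10 of 16 cases in OB, with a median of 1.45, and in 9 of 16 in non-OB, with a median of 1.28. *Oas3* (2.74), *Oas1a* (2.50) and *Irf7* (2.14) rose in OB, while *Rsad2* (0.48 ± 0.21) and *Ifit2* (0.79 ± 0.23) were not called. Many of these genes answer to both kinds of interferon.

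Of 16 genes of CXCR3 signalling and ligand processing, 6 were called higher and 0 lower in OB, and 4 and 0 in non-OB. *Rgs16* (3.67 ± 0.17 SE, adjusted p = 0.000224 in limma) and *Rgs1* (3.12 ± 0.41), which shorten G protein signalling in lymphocytes, rose, as did *Rac2* (1.48), *Pik3cg* (1.42) and *Arrb2*, an arrestin that ends receptor signalling (1.21). The other arrestin, *Arrb1*, read -0.62 ± 0.22 and was not called. The G protein subunits *Gnai2* (-0.09) and *Gnai3* (-0.17) were not called. *Dpp4*, the peptidase that trims and inactivates CXCR3 ligands, changed by -0.77 ± 0.15, with an adjusted p of 0.026 but a change under 2-fold, so that it was not called.

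Markers of the cells that carry the receptor or make the ligands were read from lists. Over all probes, 2.72% were called higher in OB against sham and 1.81% in non-OB against sham. In OB 9 of 11 T cell genes were called higher, with a median of 2.06, among them *Cd8a* (3.03 ± 0.40 SE), *Cd3e* (2.06 ± 0.23) and *Cd4* (1.07 ± 0.24). In non-OB 5 of 11 were called higher, with a median of 1.65. At an unadjusted p under 0.05 in limma there were 10 of 11 in each comparison. Of 16 genes of the type 1 programme 10 were called higher in OB, with a median of 1.60. They included *Il12b* (2.94), *Il12rb1* (2.84) and *Tbx21*, the factor that switches *Cxcr3* on in T cells (1.44 ± 0.26). In non-OB 7 of 16 were called higher, and *Tbx21* at 1.12 ± 0.26 was not called (adjusted p = 0.0666 in limma). Of the natural killer cell genes, 1 of 9 in OB was called higher and 1 lower, with a median of -0.41. In non-OB the counts were the same, with a median of -0.16. *Ncr1*, which defines these cells, read -0.92 ± 0.44 in OB, under 2-fold and not called. Granzyme A (*Gzma*) fell by 1.47. The gene called higher is not named here, so the named genes do not stand for the list. The part of natural killer cells in the change of *Cxcr3* was not tested.

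Among cells that make the ligands, 4 of 10 monocyte and macrophage genes were called higher in OB, with a median of 1.09, including *Fcgr1* (2.42) and *Cd68* (2.29). So were 5 of 8 dendritic cell genes, with a median of 2.40, including *Flt3* (3.03), *Batf3* (2.72) and *Clec9a* (2.61). The counts in non-OB were 3 of 10 and 5 of 8. With genes that were not well above background in a group at their bound, the medians in OB stayed at 2.31 for the CC chemokines, 1.67 for the receptors, -0.41 for the natural killer cell list and 2.40 for the dendritic cell list. Endothelial genes went the other way, with 7 of 10 called lower in OB and 3 of 10 in non-OB. Of the epithelial lists, 1 of 6 club cell, 1 of 8 ciliated cell and 2 of 6 alveolar type 1 genes were called lower in OB. Their medians were -1.97, -1.37 and -1.01, beside 0.05 for alveolar type 2, and 2.43% of all probes were called lower. In non-OB the counts were 0 of 6, 0 of 8 and 1 of 6. The part of these cells in the change of the ligands was not tested.

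**Figure D5:**
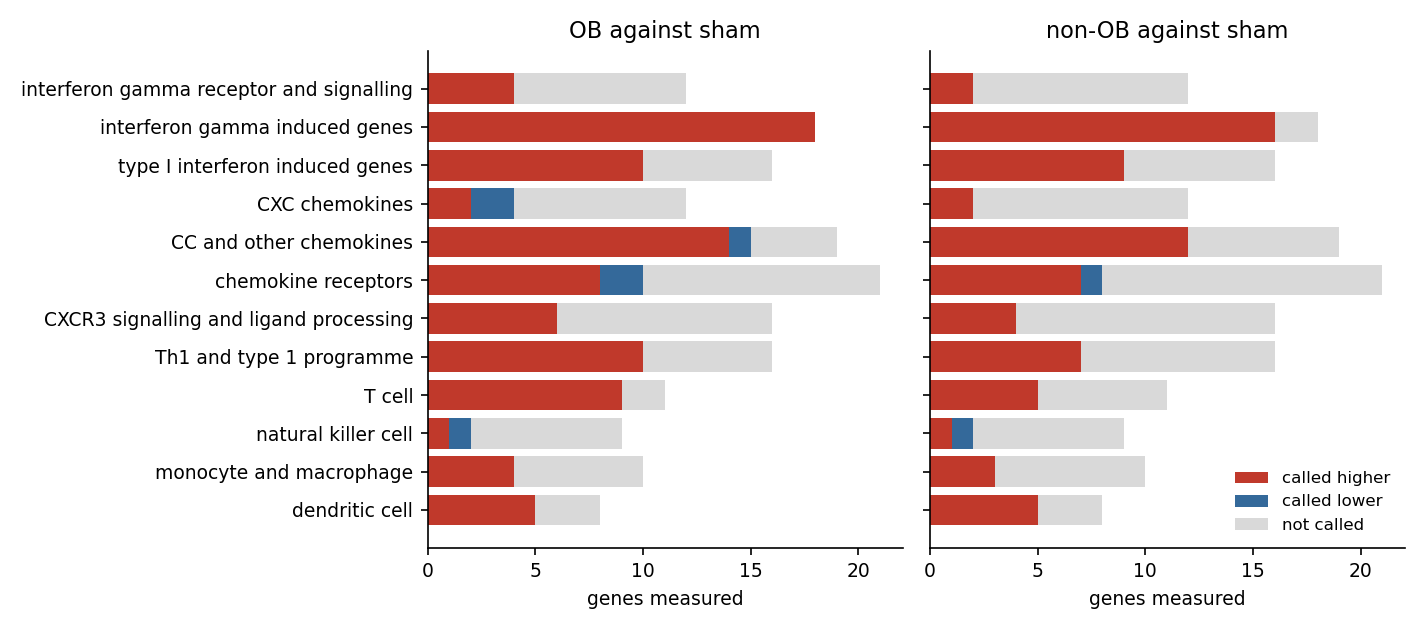
Number of measured genes (horizontal axis) of each list called higher (red), called lower (blue) or not called (grey) in OB against sham and in non-OB against sham; the members *Cxcl9*, *Cxcl10* and *Cxcr3* are in none of the lists. All 18 interferon gamma induced genes were called higher in OB, and 2 of 12 CXC chemokines were.

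Of the 9 genes with a probe that lie next to the ligand cluster in RefSeq's order, limma called 0 in each of the 3 comparisons. With 2.72% and 2.43% of all probes called higher and lower in OB against sham, a count of 0 of 9 is near the background. At an unadjusted p under 0.05 there were 3 of 9 in OB against sham, 3 of 9 in non-OB against sham and 0 of 9 in OB against non-OB, where the same held for 11190, 9691 and 1102 of the 56601 probes. *Fam47e*, on the *Cxcl11* side, had the largest value of the 9, with -1.47 ± 0.42 (SE) in OB against sham and -1.20 ± 0.42 in non-OB against sham. *Art3*, which overlaps the cluster, read -0.95 ± 0.33 and *Naaa*, on the *Cxcl9* side, 0.86 ± 0.27 in OB against sham, and the other 6 lay between 0.06 and 0.58. *U90926*, on the *Cxcl9* side, had no array well above background.

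The genes whose profile lay nearest to each member were found by the root mean square difference over the 9 arrays of log2 values centred on the sham mean, among 14892 genes well above background on all grafts. Those nearest to *Cxcr3* were *Tnfrsf4*, the T cell co-stimulatory receptor OX40 (0.21), *Tlr11* (0.22) and *Foxp3*, the factor of regulatory T cells (0.24). Those nearest to *Cxcl10* were *Dnase1l3*, a secreted nuclease of myeloid cells (0.27), *Tigit*, an inhibitory receptor of T cells (0.48), and *Ccl8* (0.52). Those nearest to *Cxcl9* were further away, with *1810009J06Rik* at 1.12, *Ubd*, a ubiquitin-like modifier induced by interferon gamma and tumour necrosis factor, at 1.14 and *Ccl1* at 1.43. *1810009J06Rik*, *Ubd*, *Dnase1l3* and *Tigit* had no sham array well above background, *Ccl1* had 1 and *Tlr11* had 2 of 3, so their distance rests in part on unmeasured sham levels.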

How the data were processed

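Tissue from the left lungs of 3 OB, 3 non-OB and 3 sham mice was measured on 1 Agilent 1-colour array each. The authors extracted background-subtracted, spatially detrended intensity values with Feature Extraction 12.0.3.1 and deposited the intensity of each spot, together with a table of intensities scaled to a trimmed mean of 2500 on each array (2% trimmed at each end). That scaling was recomputed here and met the table within a relative difference of 4.99e-10. Control spots and outlier spots (53 to 111 an array) were left out, log2 values of repeated spots were averaged, and 56601 probes were tested. The number of arrays limits the precision.

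Groups came from the labels. Beyond what is given above, such as the strains, these do not say more of the animals than 1 lung per sample. Limma 3.58.1 in R 4.3.3 (lmFit, eBayes) fitted 1 mean per group on all 9 arrays, with Benjamini-Hochberg adjustment over all probes. Exact permutation tests were two-sided. Python 3.11.15, numpy 2.4.6, pandas 2.3.3 and statmod 1.5.0 were also used. Genes were named through RefSeq accessions of GRCm38.p6, which matched 32991 probes, and each gene was read on its probe of highest mean signal. The array design names another build, so only the RefSeq promoter table gives coordinates here. The genes named are the members, a set of pathway genes, the nearest profiles, the neighbours of the cluster and up to 4 called genes per list and direction. The members and lists were chosen with earlier results of these data known. The code was tested on simulated data. Results were recomputed with another scaling, normalization, background correction, filter, spread model, threshold or block, by the methods' t-test, with 1 sham control and without each array. For normexp the median spot signal stood in for the mean signal. Some genes of the lists are counted but not reported by name here. Histology and qPCR were not analysed here.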

Additional observations from a re-analysis of the deposited data

How the results depend on the processing

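The 3 members were called higher in OB against sham under 24 of 25 alternatives and in non-OB against sham under 23 of 25, and none was called in OB against non-OB under any of 23. Some alternatives left the member values as they were, such as the deposited value table and the kept outlier spots. Dropping the fold threshold against sham could only add calls. With slide as a fixed block, 1 member stayed called in OB against sham (*Cxcl9* at 9.52, adjusted p = 0.0433 in limma), while *Cxcl10* at 6.01 and *Cxcr3* at 3.34 were lost, and 0 stayed called in non-OB against sham (8.89, 5.57 and 2.92 for *Cxcl9*, *Cxcl10* and *Cxcr3*). That fit takes its sham lungs from slide 1 alone, since sham 3 has a slide to itself. The methods' t-test with Benjamini-Hochberg adjustment called 0 members in non-OB against sham (8.37, 5.24 and 2.90, adjusted p = 0.0626, 0.0641 and 0.0817) and 3 in OB against sham, and at the study's threshold of an unadjusted p and a fold change it called 3 in each. With each array left out in turn, all 3 stayed called against sham, and *Cxcr3* relative to the T cell list in OB against non-OB ran from -0.22 to 0.12, below 0 except without OB 1. With the replicate number as a block (replicate block), *Cxcl9*, *Cxcl10* and *Cxcr3* changed by 9.0, 5.68 and 3.32 in OB against sham (adjusted p = 0.00228, 0.00478 and 0.00992 in limma), and no call of a member changed. Same-numbered lungs showed no common direction of deviation (correlations of -0.40 to 0.28). Differently numbered lungs were not set beside them, so these values do not settle whether the numbers pair the lungs. Over all probes, 1539 were called higher in OB against sham and 1027 in non-OB against sham, and 4 and 0 with slide as a fixed block, 633 and 0 by the methods' t-test, 693 and 334 against the C57BL/10 sham alone, 2804 with array weights (OB), and 727 and 277 without sham 2; 1376 and 402 were called lower, and 0 and 0, 461 and 0, 225 and 55, 2439 (OB), and 357 and 29 in the same order. For the methods' t-test and the leave-out fits the cause was not tested. The dim sham signal of *Cxcl9* limits how well its fold change is known.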
